A study of Mus musculus with 6 samples.

Results

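The genes described here encode the protein shell of the outermost skin cells and the enzymes that finish it. They were chosen by symbol: every gene of the Lce and Sprr families, and 13 single genes (Flg, Flg2, Hrnr, Ivl, Cnfn, Krtdap, Sbsn, Cdsn, Tgm1, Tgm3, Casp14, Klk5 and Klk7). This gave 51 of the 57010 rows of the deposited table: 21 Lce genes, 17 Sprr genes and the 13 single genes. Of the 51, 47 had a mean of at least 1 FPKM (sequenced fragments per kilobase of gene length at a common depth) over the 6 libraries and were tested, and 4 did not. The 4 are all Sprr genes: Sprr2a2, Sprr2b and Sprr3, with means of 0.606, 0.385 and 0.226 FPKM, and the pseudogene Sprr2c-ps, listed at 0 in every library.

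Skin RNA was sequenced from 6 wild-type mice when a diabetic ulcer experiment ended, 1 library per mouse. The skin of 3 mice received a gel with CST, for which the title of the series has cortistatin, a neuropeptide. The skin of the other 3 received a gel with Yoda1, a small molecule that opens the ion channel Piezo1. How diabetes was brought about, and where in or beside the wound the skin was taken, is not in the labels, and skin without either drug was not analysed here, so each value sets CST against Yoda1. The labels tag the samples as keratinocytes and also as skin; the libraries held transcripts of muscle (Acta1 31.6 to 3538.4 FPKM), fibroblasts (Col3a1 1499.0 to 3997.0 FPKM) and macrophages (Lyz2 436 to 1773.1 FPKM), so they are called skin here. In bulk RNA, fewer cells of a type and less RNA per cell cannot be told apart.

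As a keratinocyte moves up through the epidermis it stops dividing, makes keratins and filaggrin, and at the top replaces its plasma membrane with a cross-linked protein shell, the cornified envelope. Transglutaminases join involucrin, loricrin, the small proline-rich proteins (SPRR) and the late cornified envelope proteins (LCE) into that shell. Filaggrin-type proteins bundle keratin and are later cut up, in part by caspase-14, and the kallikreins Klk5 and Klk7 cut the corneodesmosomes so that dead cells are shed. In background knowledge of mouse and human skin, Lce1 genes belong to undisturbed epidermis, whereas Lce3 and many Sprr genes are known for being induced by wounding and inflammation.

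Most of these genes lie side by side in the epidermal differentiation complex. By GENCODE M21 on GRCm38, 42 of the 51 lie on chromosome 3 between 92215799 and 93333570, a span of 1118 kb. The 17 Sprr genes fill 285 kb (92215799 to 92500493), and the 21 Lce genes fill the next 399 kb (92620081 to 93019060), with Ivl between the blocks and Flg2, Flg and Hrnr beyond them. The 6 Lce3 genes form a run of 68 kb (92925287 to 92993426), and Lce1m stands on its far side, apart from the other 13 Lce1 genes (92646535 to 92851286).

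The promoters of the 2 families differ in the letters they hold, and 6 are shown because the results turn on these genes. Sprr2d, Sprr2e, Sprr1a and Flg hold both motifs marked, Lce1m is 1 of the 2 Lce promoters with TATAAA, and Lce3c holds neither. They are Sprr2d (chr3:92338890-92339189, plus strand), Sprr2e (chr3:92351893-92352192, plus strand), Sprr1a (chr3:92485832-92486131, minus strand), Lce1m (chr3:93019012-93019311, minus strand), Lce3c (chr3:92944236-92944535, plus strand) and Flg (chr3:93273296-93273595, plus strand), from RefSeq on GRCm38.p6, each running 5′ to 3′ from 250 bases before the transcript start to 50 after it. Capitals mark TGANTCA, the motif of AP-1 factors, searched on both strands, and TATAAA, the core box upstream of many start sites, searched on the coding strand only.
Sprr2d: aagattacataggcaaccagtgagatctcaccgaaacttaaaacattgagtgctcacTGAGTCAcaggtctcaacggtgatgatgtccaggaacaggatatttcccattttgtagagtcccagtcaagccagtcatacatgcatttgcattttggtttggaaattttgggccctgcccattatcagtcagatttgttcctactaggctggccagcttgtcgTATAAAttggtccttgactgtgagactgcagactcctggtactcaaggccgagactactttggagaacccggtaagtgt
Sprr2e: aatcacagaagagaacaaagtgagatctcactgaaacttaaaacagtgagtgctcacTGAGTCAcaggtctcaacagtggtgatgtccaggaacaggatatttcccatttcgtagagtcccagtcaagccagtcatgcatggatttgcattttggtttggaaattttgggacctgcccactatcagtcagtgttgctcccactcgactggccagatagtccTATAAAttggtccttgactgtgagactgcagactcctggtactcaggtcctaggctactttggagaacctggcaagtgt
Sprr1a: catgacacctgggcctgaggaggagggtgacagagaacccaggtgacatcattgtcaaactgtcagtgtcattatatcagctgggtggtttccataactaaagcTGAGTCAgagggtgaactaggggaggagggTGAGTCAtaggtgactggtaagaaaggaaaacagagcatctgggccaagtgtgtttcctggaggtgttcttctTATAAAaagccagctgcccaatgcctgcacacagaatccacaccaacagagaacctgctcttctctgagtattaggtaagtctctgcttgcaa
Lce1m: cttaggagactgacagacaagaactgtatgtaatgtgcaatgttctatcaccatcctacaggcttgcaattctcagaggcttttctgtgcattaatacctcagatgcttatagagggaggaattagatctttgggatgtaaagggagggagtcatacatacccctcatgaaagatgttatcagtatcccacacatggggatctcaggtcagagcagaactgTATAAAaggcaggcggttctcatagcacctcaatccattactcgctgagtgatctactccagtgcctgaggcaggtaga
Lce3c: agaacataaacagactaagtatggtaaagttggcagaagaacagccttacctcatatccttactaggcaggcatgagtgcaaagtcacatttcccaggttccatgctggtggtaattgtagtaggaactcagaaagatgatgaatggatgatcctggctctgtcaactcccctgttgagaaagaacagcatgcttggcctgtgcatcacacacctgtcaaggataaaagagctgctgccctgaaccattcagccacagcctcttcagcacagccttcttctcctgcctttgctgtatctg
Flg: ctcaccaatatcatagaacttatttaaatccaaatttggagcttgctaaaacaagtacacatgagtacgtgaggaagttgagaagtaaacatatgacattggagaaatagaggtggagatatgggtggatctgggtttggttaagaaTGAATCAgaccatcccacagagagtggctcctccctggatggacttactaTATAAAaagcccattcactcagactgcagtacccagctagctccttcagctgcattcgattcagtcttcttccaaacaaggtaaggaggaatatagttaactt

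RefSeq held a promoter for 47 of the 51 genes. Each of these genes counts once, by its first listed promoter, whereas the shares over all promoters count every listed promoter. TGANTCA stood in 9 of 14 Sprr promoters (64.3%), in 0 of 20 Lce promoters and in 5 of the 13 single genes (38.5%). These 5 were Flg, Flg2, Ivl, Krtdap and Sbsn. The share over all 32851 promoters was 7.81%. TATAAA stood in 10 of 14 Sprr promoters (71.4%), in 2 of 20 Lce promoters (Lce1d and Lce1m) and in 5 of the 13 single genes, against 8.32% of all promoters. The 7 Sprr2 promoters with both motifs held an AP-1 match whose first base lay 193 to 198 bases before the start and a TATAAA 29 bases before it. These 7 belong to 1 gene family and are not independent of each other: over their 21 pairs, identity of the 300 bases, aligned with gaps, ran from 59.4% to 88.7%, with a median of 65.4%. A match is a run of letters, not a shown binding site, and no match says only that those letters are not in this window.

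The other motifs were searched on both strands. CACCC (KLF factors) stood in 12 of the 13 single genes (92.3%), 7 of 14 Sprr and 8 of 20 Lce promoters, against 57.5% of all. CAGGAA (ETS factors) stood in 11 of 14 Sprr (78.6%), 12 of 20 Lce and 1 of the 13 single-gene promoters, against 30.6% of all. TTGCNNAA (C/EBP factors) stood in 5 of the 13 single genes (38.5%), 1 of 14 Sprr and 1 of 20 Lce promoters, against 10.8% of all. TGACNNNGC (the antioxidant response element) stood in 5 of 20 Lce, 3 of them Lce3, in 2 of 14 Sprr and in 2 of the 13 single-gene promoters, against 12.4% of all. GAAANNGAA (part of the interferon-stimulated response element) stood in 4 of 14 Sprr promoters (Sprr2a1, Sprr2a2, Sprr2a3 and Sprr2f). It stood in 0 of 20 Lce and 2 of the 13 single-gene promoters, against 8.56% of all. The Sprr2a1 and Sprr2a2 promoters were 100% identical, and that of Sprr2a3 was 82.9% identical to each. Their GAAANNGAA and CAGGAA matches are therefore not independent of each other. AACCGGTT (grainyhead-like factors) stood in none of the 47, where 0.146% of all promoters hold it. Matches of different motifs were allowed to share bases.

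**Figure D1:**
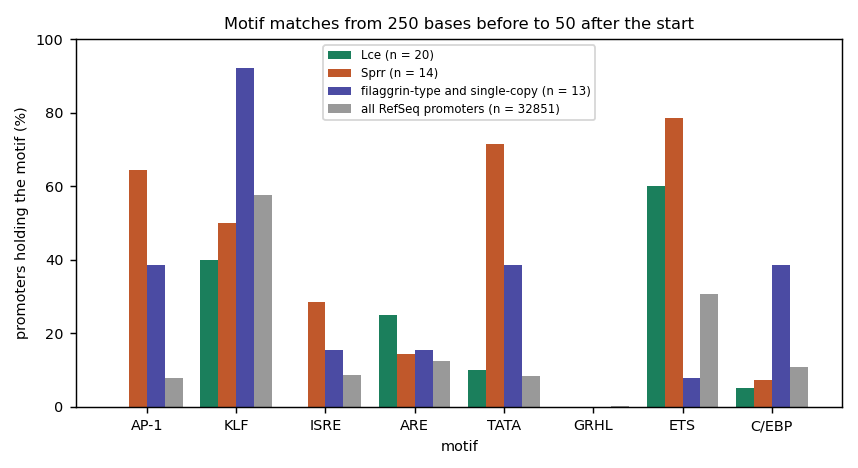
The bars give the percentage of promoters that hold each motif at least once, for Lce, Sprr and the single genes and for all RefSeq promoters of the same window. The Sprr bars for AP-1 (64.3%) and TATA (71.4%) stand above those of all promoters (7.81% and 8.32%), and the Lce bar for AP-1 is at 0.

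CST skin had the higher mean level for nearly all of these genes, but the groups overlapped for each of them except Flg2. In 44 of the 47 tested genes (93.6%) the mean log2(FPKM + 1) was higher in CST than in Yoda1 skin, against 47.2% of all 14588 tested genes. The 3 exceptions were the cross-linking enzyme Tgm3 (-0.04), Sprr2a3 (-0.17) and Sprr2g (-0.02); every log2 change given is the mean log2(FPKM + 1) of CST skin minus that of Yoda1 skin. All 47 were measured in the same 6 mice, so the 44 are not 44 separate observations: 16 of the 47 had the lower mean in CST without CST mouse 3, and 12 without Yoda1 mouse 2. With limma over all 14588 genes, 0 of the 47 passed an adjusted p of 0.05, as did 0.0% of all tested genes (smallest adjusted p = 0.622 among the 47 and 0.521 overall). At an unadjusted p under 0.05 there was 1 of the 47, against 4.0% of all genes, and limma-voom on recovered reads also called 0 genes. In 1 of the 47 (2.13%) every CST library lay above every Yoda1 library, against 4.52% of all genes, and the reverse held for 0, against 2.08% (both directions together 6.59%).

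That 1 gene is Flg2 (ENSMUSG00000049133; chromosome 3, 93197278 to 93221391 on GRCm38), filaggrin-2, a large repeat protein of the cornified layer. It measured 19.6, 17.0 and 22.0 FPKM in CST mice 1 to 3, against 13.1, 10.9 and 7.61 FPKM in Yoda1 mice 1 to 3. The means were 19.5 ± 2.51 and 10.5 ± 2.78 FPKM (SD, n = 3 each), which is a log2 change of 0.85 with an SE of 0.25 (adjusted p = 0.622 by limma). Between 2518 and 8887 reads per library stood behind these values, so counting error is small beside the spread between mice. Leaving out the library that mattered most for many other genes, CST mouse 3, gave 0.77. Over the fits that leave out 1 library, the change ran from 0.66 (without Yoda1 mouse 3) to 1.02 (without Yoda1 mouse 1). With limma's library weights it was 0.47.

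Filaggrin itself, Flg, which packs keratin filaments and is later broken down to moisturising amino acids, varied more than Flg2. It measured 124, 100 and 424 FPKM in CST mice and 95.3, 36.2 and 182 FPKM in Yoda1 mice, a log2 change of 1.01 (SE 0.69). Leaving out CST mouse 3 gave 0.37, leaving out Yoda1 mouse 2 gave 0.40, and leaving out Yoda1 mouse 3 gave 1.55. CST mouse 3 was highest, and Yoda1 mouse 3 stood above the other 2 CST mice, so the groups overlapped. The ratio of Flg to Flg2 was 6.3, 5.9 and 19.3 in CST mice and 7.25, 3.33 and 23.9 in Yoda1 mice: mouse 3 of each group was high, in both treatments. The whole reads recovered for Flg are those of a gene length of 2619 bases, where GENCODE M21 gives its exons 18829, so its level set beside another gene's depends on the length the authors used. Hrnr, hornerin, another filaggrin-type protein, measured 31.0, 21.5 and 41.2 FPKM in CST mice and 18.8, 12.7 and 26.8 FPKM in Yoda1 mice (log2 change 0.67, SE 0.33, and 0.41 without Yoda1 mouse 2).

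Casp14, the protease that takes part in breaking filaggrin down, had the largest log2 change of the 47, at 1.28 (SE 0.57, limma unadjusted p = 0.0572). It measured 60.3, 42.7 and 159 FPKM in CST mice and 30.0, 15.9 and 56.7 FPKM in Yoda1 mice. Yoda1 mouse 3 lay above CST mouse 2 and just under CST mouse 1. Leaving out CST mouse 3 gave 0.73, leaving out Yoda1 mouse 2 gave 0.83.

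The proteins and enzymes that build and loosen the shell gave smaller differences. Involucrin, Ivl, an early scaffold of the envelope, measured 128, 117 and 311 FPKM in CST mice and 90.9, 88.5 and 192 FPKM in Yoda1 mice (log2 change 0.53, and 0.08 without CST mouse 3). Tgm1, the membrane-bound transglutaminase, measured 87.3, 72.6 and 89.1 FPKM in CST mice and 61.7, 45.2 and 118 FPKM in Yoda1 mice (0.25, SE 0.34, and -0.05 without Yoda1 mouse 2). Tgm3, a soluble transglutaminase also found in hair follicles, measured 14.9, 12.3 and 12.6 FPKM in CST mice and 11.9, 6.39 and 31.5 FPKM in Yoda1 mice. The CST mice were close together for both enzymes and the Yoda1 mice lay on either side of them, with Yoda1 mouse 3 highest of all 6. Without Yoda1 mouse 3 the Tgm3 change was 0.54, and without Yoda1 mouse 2 it was -0.53.

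Klk7, the chymotrypsin-like kallikrein of desquamation, was also highest in Yoda1 mouse 3 and lowest in Yoda1 mouse 2, with 622, 409 and 619 FPKM in CST mice and 394, 268 and 735 FPKM in Yoda1 mice (log2 change 0.34, and 0.73 without Yoda1 mouse 3). Klk5, the trypsin-like kallikrein that activates it, measured 168, 166 and 367 FPKM in CST mice and 138, 122 and 181 FPKM in Yoda1 mice (0.58, and 0.20 without CST mouse 3). Their substrate corneodesmosin, Cdsn, measured 151, 153 and 273 FPKM in CST mice and 119, 88.1 and 200 FPKM in Yoda1 mice (0.53, and 0.24 without CST mouse 3). All 3 overlapped between the groups, and CST mouse 3 stood above the other libraries for Klk5 and Cdsn but not for Klk7.

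Krtdap, a small secreted protein of differentiating keratinocytes, was the most abundant of the 47 at a mean of 4796.6 FPKM. It measured 4146.6, 4210.6 and 7962.3 FPKM in CST mice and 3626.1, 4110.4 and 4723.7 FPKM in Yoda1 mice (log2 change 0.33, and 0.02 without CST mouse 3). Its neighbour on chromosome 7, Sbsn, suprabasin, measured 438, 564 and 889 FPKM in CST mice and 355, 369 and 505 FPKM in Yoda1 mice (0.58, SE 0.31, and 0.30 without CST mouse 3). Cnfn, cornifelin, measured 437, 365 and 840 FPKM in CST mice and 402, 325 and 439 FPKM in Yoda1 mice (0.41, and 0.05 without CST mouse 3). Over the 13 single genes the median log2 change was 0.53, against -0.01 for all tested genes, with 0 called, and it was 0.24 without CST mouse 3. Leaving out Yoda1 mouse 3 gave single-gene changes from 0.42 to 1.72, and leaving out Yoda1 mouse 2 gave -0.53 to 0.89. CST mouse 3 was the highest library for 10 of the 13, against 15.7% of all tested genes. Yoda1 mouse 2 was the lowest for 10, against 20.0% of all.

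**Figure D2:**
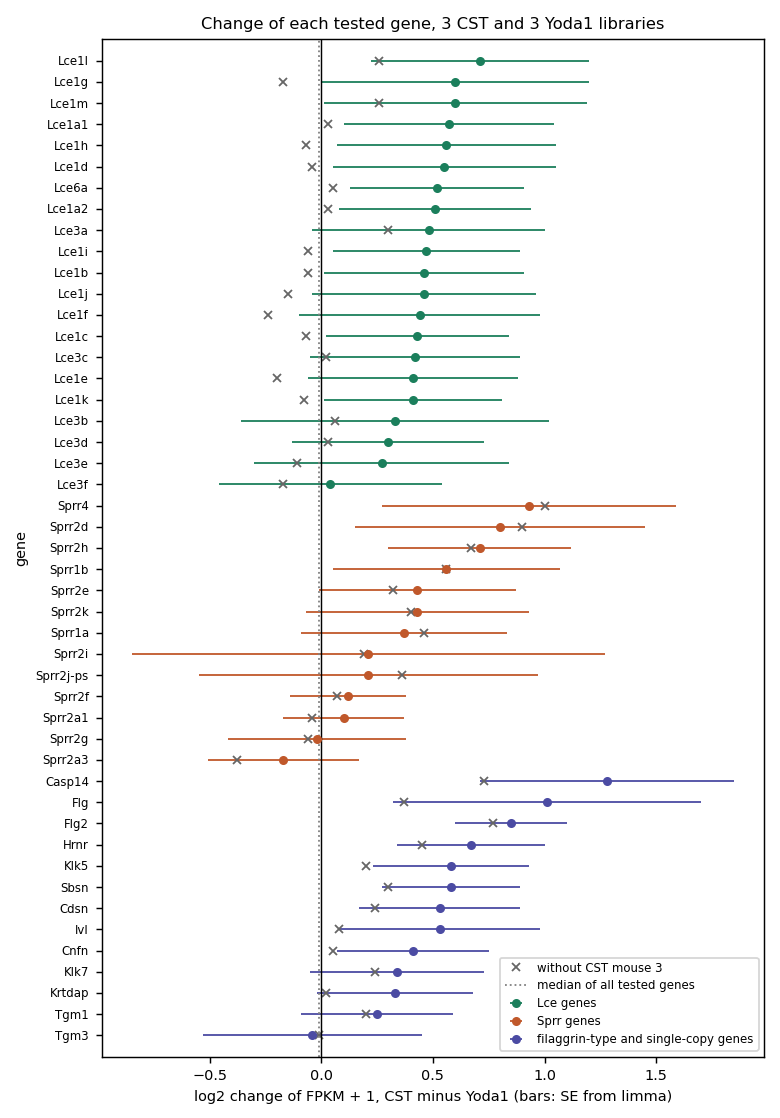
Points give the log2 change, CST minus Yoda1, of each tested gene with its SE from limma, and crosses give the change without CST mouse 3; the dotted line is the median of all tested genes. Points of 44 of the 47 genes lie above 0, and the Lce1 crosses lie between -0.24 and 0.26.

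The Lce1 genes, which encode late envelope proteins, had a higher CST mean that rested on 1 mouse. CST mouse 3 was the highest of the 6 libraries for 14 of 14 Lce1 genes, where it was the highest for 15.7% of all tested genes. It exceeded the next library by 1.36-fold (Lce1m) to 3.59-fold (Lce1g). Summed over the 14, Lce1 measured 2123.1, 2560.4 and 6927.5 FPKM in CST mice and 2734.3, 2803.0 and 1783.9 FPKM in Yoda1 mice. The median log2 change was 0.49 (range 0.41 to 0.71), with 14 of 14 positive. Without CST mouse 3 the median was -0.06, and the changes ran from -0.24 (Lce1f) to 0.26 (Lce1l), with 4 of 14 positive.

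Lce1g shows the pattern at its widest, with 70.2, 79.2 and 377 FPKM in CST mice and 105, 70.9 and 80.2 FPKM in Yoda1 mice. Lce1a1 measured 313, 379 and 1060.5 FPKM in CST mice and 395, 406 and 238 FPKM in Yoda1 mice. Apart from CST mouse 3, the Lce1a1 values of the groups overlapped, and Yoda1 mouse 3 was the lowest. CST mouse 1 was the lowest library for 5 of the 14, Yoda1 mouse 2 for 2 and Yoda1 mouse 3 for 7. Over all tested genes these libraries were the lowest for 24.5%, 20.0% and 29.1%.

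How low Yoda1 mouse 3 was differed along the Lce1 genes. For Lce1a1, Lce1b, Lce1a2, Lce1c and Lce1d, the first 5 Lce1 genes in chromosome order, its level was 0.601, 0.638, 0.640, 0.805 and 0.573 of that in Yoda1 mouse 1. For the next 7, from Lce1e to Lce1k, the ratio lay between 0.652 (Lce1j) and 1.21 (Lce1f). It was lowest for the last 2, at 0.411 for Lce1l and 0.275 for Lce1m. At most 4.90% of the 100-base stretches of an Lce1 gene's transcripts (Lce1e) also occurred, letter for letter, in another gene. Stretches that differ by a single base were not counted, so this does not measure how alike the transcripts are. The runs overlapped, and other Lce genes of the block did not follow them: the ratio was 0.964 for Lce6a, ahead of Lce1a1, and 0.370 (Lce3b) to 1.44 (Lce3e) for the Lce3 genes between Lce1l and Lce1m. No test was made of this order, which was noticed in these libraries.

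Lce1m (ENSMUSG00000027912; chromosome 3, 93017810 to 93019060), which lies apart from the others, also had the highest mean of the Lce genes, at 494 FPKM. It measured 342, 514 and 848 FPKM in CST mice and 498, 626 and 137 FPKM in Yoda1 mice (log2 change 0.60, SE 0.59). CST mouse 3 led Yoda1 mouse 2 by 1.36-fold, and the change was -0.07 without Yoda1 mouse 3. Lce1m stood at 2.58, 3.24 and 1.41 times the level of Lce1f in CST mice and at 2.85, 4.54 and 0.648 times in Yoda1 mice. Set against Yoda1 mouse 1, Lce1f was the Lce1 gene least low in Yoda1 mouse 3 and Lce1m the lowest. The low ratio in Yoda1 mouse 3 therefore follows from how this pair was picked. Lce6a, at the other end of the Lce block, followed the majority, with 78.5, 64.7 and 192 FPKM in CST mice and 76.0, 58.8 and 73.2 FPKM in Yoda1 mice (0.52, and 0.05 without CST mouse 3).

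The 6 Lce3 genes sat inside the same block and followed another order. Their level in CST mouse 1 was 2.11 (Lce3d) to 6.89 (Lce3b) times that in CST mouse 2. For the Lce1 genes this ratio ran from 0.665 to 1.04, so the ranges did not touch. The order was not particular to Lce3: for the 13 tested Sprr genes the ratio ran from 1.23 to 22.4. Yoda1 mouse 2 was the lowest library for 12 of those 13. These ratios were not tested. CST mouse 2 or Yoda1 mouse 2 was the lowest library for all 6, where they were the lowest for 2.69% and 20.0% of all tested genes. Lce3b measured 38.5, 5.59 and 27.4 FPKM in CST mice and 28.7, 9.71 and 10.6 FPKM in Yoda1 mice. Lce3c, the most abundant at a mean of 89.1 FPKM, measured 103, 47.9 and 164 FPKM in CST mice and 96.6, 43.4 and 79.8 FPKM in Yoda1 mice. The median log2 change was 0.32, with 6 of 6 positive and the largest at 0.48 (Lce3a), and it was 0.02 without CST mouse 3, 0.03 without Yoda1 mouse 2 and -0.73 with library weights. Between 24.1% and 43.0% of the 100-base stretches of Lce3c, Lce3d, Lce3e and Lce3f occurred in another gene, so the split of reads among these 4 is uncertain; Lce3a shared none and Lce3b 1.08%.

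**Figure D3:**
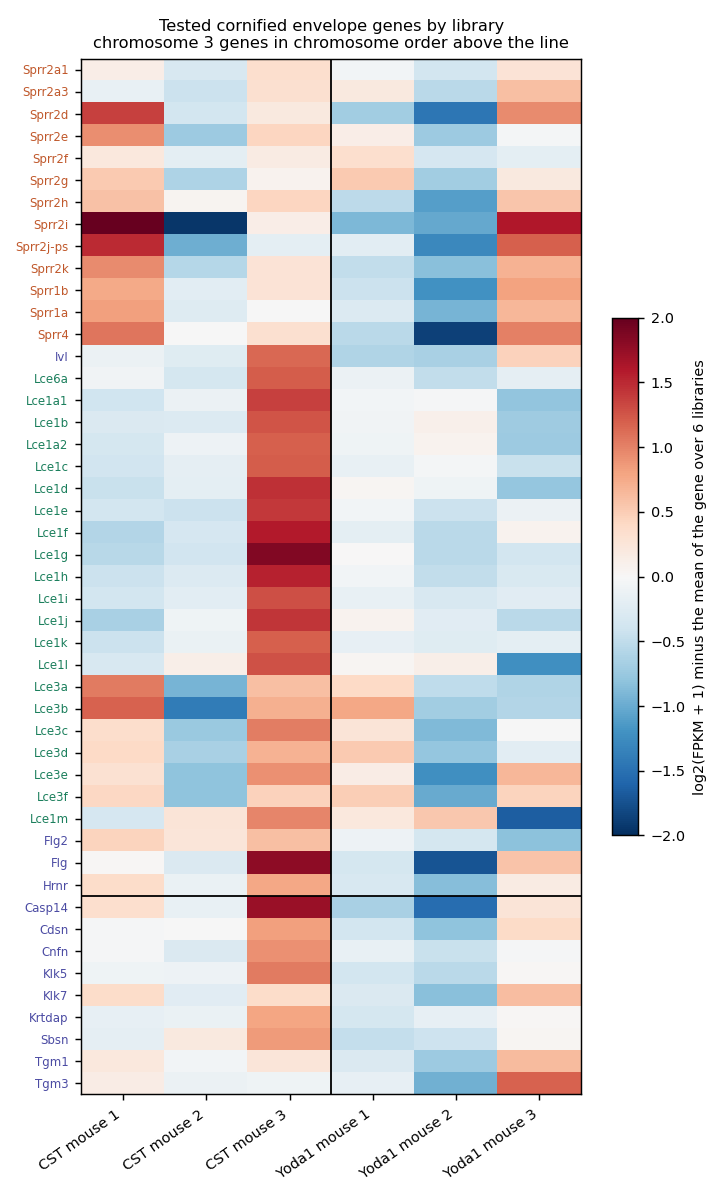
Each row is a tested gene, with Lce names in green, Sprr names in orange and single genes in blue, and each column a library, CST on the left; colour gives log2(FPKM + 1) minus the mean of that gene over the 6 libraries, with the colour scale ending at a difference of 2 in either direction. The Lce1 rows are red in CST mouse 3, the Lce3 rows blue in mouse 2 of both groups, and many Sprr rows red in CST mouse 1 and Yoda1 mouse 3.

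The Sprr genes, whose proteins act as bridges in the envelope, put other mice on top. CST mouse 1 was the highest library for 8 of the 13 tested Sprr genes, against 12.8% of all tested genes. Yoda1 mouse 2 was the lowest for 12, against 20.0% of all. CST mouse 1 and Yoda1 mouse 3 were the highest pair for 8. These 8 were Sprr1a, Sprr1b, Sprr4, Sprr2d, Sprr2h, Sprr2i, Sprr2j-ps and Sprr2k. The median log2 change was 0.37, with 11 of 13 positive and a range from -0.17 to 0.93. Leaving out Yoda1 mouse 2 gave a median of -0.01, leaving out CST mouse 1 gave 0.06, CST mouse 2 0.80 and Yoda1 mouse 3 0.86. Gene by gene, the changes ran from -0.49 to 0.34 without Yoda1 mouse 2, with 6 of 13 positive, and from 0.06 to 1.67 without Yoda1 mouse 3, with 13 of 13 positive.

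Sprr1a (ENSMUSG00000050359; chromosome 3, 92483952 to 92485895), the most abundant Sprr gene, measured 2314.8, 1099.1 and 1312.6 FPKM in CST mice and 1084.1, 690.0 and 2078.9 FPKM in Yoda1 mice. The groups overlapped, the 2 highest values being 1 of each group, and the log2 change was 0.37 (SE 0.46), or -0.01 without Yoda1 mouse 2. Sprr1b measured 1563.3, 798 and 1115.2 FPKM in CST mice and 682, 398 and 1610.1 FPKM in Yoda1 mice (0.56, and 0.09 without Yoda1 mouse 2). Sprr4 had the largest change of the family, 0.93 (SE 0.66), with 380, 180 and 226 FPKM in CST mice and 124, 49.0 and 365 FPKM in Yoda1 mice; leaving out Yoda1 mouse 2 gave 0.23 and leaving out Yoda1 mouse 3 gave 1.67. Sprr2h, the most abundant Sprr2 gene, measured 417, 286 and 374 FPKM in CST mice and 192, 128 and 408 FPKM in Yoda1 mice (0.71, SE 0.41, the smallest unadjusted limma p of the family at 0.123).

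Sprr2i spanned the widest range of the 47 genes, 22.4-fold, and the span lay inside the CST group. It measured 62.8, 2.81 and 15.1 FPKM in CST mice and 6.89, 6.19 and 43.7 FPKM in Yoda1 mice, on 48 to 934 reads per library. Its log2 change was 0.21 with an SE of 1.06, so no difference between treatments was detectable for it at this spread. Sprr2k had the fewest reads of the tested genes, with 3 in Yoda1 mouse 2 and 46 in CST mouse 1.

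The Sprr2 genes did not all follow this order. Sprr2d measured 193, 57.8 and 85.3 FPKM in CST mice and 45.4, 26.8 and 145 FPKM in Yoda1 mice (log2 change 0.80, SE 0.65). Its neighbour Sprr2e measured 35.4, 10.6 and 24.8 FPKM in CST mice and 19.9, 10.5 and 17.5 FPKM in Yoda1 mice (0.43, SE 0.44). Sprr2d was thus 5.45, 5.46 and 3.44 times as abundant as Sprr2e in CST mice and 2.28, 2.55 and 8.31 times in Yoda1 mice, and Yoda1 mouse 3 was high for Sprr2d but not for Sprr2e. The promoters shown for this pair were 88.7% identical, with both capitalised motifs at the same distances from the start. At most 1.09% of their 100-base stretches occurred, letter for letter, in another gene, which leaves near matches uncounted. The pair was picked for its unlike levels after they were seen.

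Sprr2f and Sprr2g were highest in Yoda1 mouse 1 and differed little between treatments, with Sprr2f at 9.74, 7.05 and 9.33 FPKM in CST mice and 10.7, 6.33 and 7.11 FPKM in Yoda1 mice (0.12, SE 0.26). Sprr2g measured 39.9, 17.5 and 29.0 FPKM in CST mice and 40.1, 16.6 and 31.5 FPKM in Yoda1 mice. Sprr2a3 measured 23.2, 18.9 and 32.3 FPKM in CST mice and 29.6, 17.5 and 39.9 FPKM in Yoda1 mice. For Sprr2a1, Sprr2a2 and Sprr2a3 between 36.2% and 92.8% of the 100-base stretches occurred in another gene, and Sprr2a1 and Sprr2a2 overlap on the chromosome, so their values are uncertain. Sprr3, known for internal epithelia in mouse, had at most 21 reads in a library, in CST mouse 1.

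Setting Lce against Sprr, the balance of the families differed from mouse to mouse and little between the treatments. The mean log2(FPKM + 1) of the Lce genes minus that of the tested Sprr genes was 0.36, 1.43 and 2.26 in CST mice and 1.62, 1.89 and 0.26 in Yoda1 mice. The means were 1.35 ± 0.95 in CST and 1.26 ± 0.87 in Yoda1 skin (SD, n = 3 each), a difference of 0.09, far inside either SD. The difference of the family medians was also 0.09, and leaving out 1 library at a time moved it between -0.55 and 0.67. In summed FPKM the Lce genes stood at 0.492, 1.11 and 2.32 times the Sprr genes in CST mice and at 1.38, 2.20 and 0.433 times in Yoda1 mice. Sprr was the more abundant family in CST mouse 1 and Yoda1 mouse 3, and Lce in the other 4. The 2 Lce groups were not alike in this contrast. By mean log2(FPKM + 1), Lce1 minus Sprr ran from 0.88 to 3.27 over the 6 libraries. Lce3 minus Sprr ran from -1.29 to 0.06, a narrower range.

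**Figure D4:**
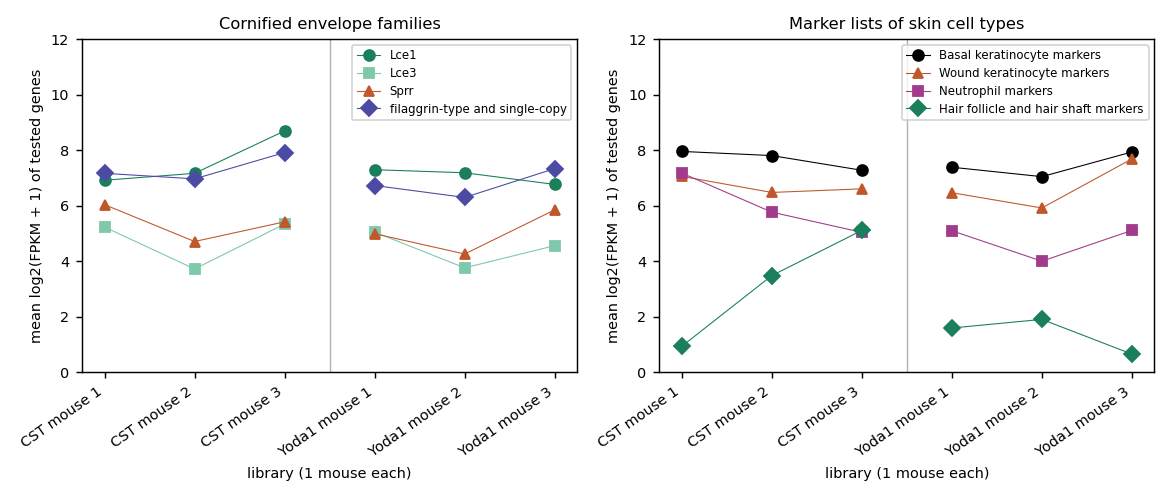
The left panel gives the mean log2(FPKM + 1) of the tested genes of each family by library, and the right panel the same for marker lists of cells and states that skin can hold; thin lines join the mice of a group and carry no order. Sprr and Lce1 are closest in CST mouse 1 (6.04 and 6.92) and farthest apart in CST mouse 3 (5.42 and 8.70), and hair follicle markers are highest in CST mouse 3 (5.11).

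Marker lists of keratinocyte states and other cells also differed between the libraries. Wound keratinocyte markers (16 of 17 tested, among them Krt6a, Krt6b and Krt16) summed to 11570.3, 7848.6 and 8064.2 FPKM in CST mice and 7130.4, 5300.4 and 18037.3 FPKM in Yoda1 mice, so CST mouse 1 and Yoda1 mouse 3 were the 2 highest, as for Sprr1a. Neutrophil markers (10 of 13 tested) summed to 11357.6, 1930.8 and 1838.7 FPKM in CST mice and 1667.7, 762 and 4152.6 FPKM in Yoda1 mice, with Ly6g at 0 in some libraries. All 10 had the higher mean in CST (median log2 change 0.97), and for Acod1, Il1r2, Retnlg and Trem1 every CST library lay above every Yoda1 library, as in 4.52% of all tested genes. S100a8 and S100a9, which keratinocytes also make, held most of these sums, at 1486.5 and 2539.1 FPKM in Yoda1 mouse 3. By mean log2(FPKM + 1) the list stood at 7.18, 5.77 and 5.04 in CST mice and 5.10, 4.0 and 5.11 in Yoda1 mice, so Yoda1 mouse 3 lay below CST mouse 2 by that measure, and Il1r2 was lowest there (27.6 FPKM). CST mouse 1 and Yoda1 mouse 3 also had the most mitochondrial transcript, 6.72% and 7.61% of the FPKM sum, against 3.25% to 3.81% in the other 4. When limma held the neutrophil score as a covariate, the Sprr median was -0.24 and the Lce median 1.12. The score itself was higher in CST by mean, so with 6 libraries this fit cannot separate neutrophil content from treatment. The part of neutrophils, of the wound keratinocyte markers and of mitochondrial transcript in the Sprr levels was not tested.

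Hair follicle and hair shaft markers (10 of 15 tested) summed to 21.4, 189 and 615 FPKM in CST mice and 28.1, 37.0 and 14.9 FPKM in Yoda1 mice, with Krt25, Krt31, Krt33a, Krt33b, Krt34, Krt35 and Krt86 at 0 in at least 1 library. All 10 had the higher mean in CST (median log2 change 1.76), with 0 called by limma. For Hoxc13 and Krt75 every CST library lay above every Yoda1 library, as in 4.52% of all tested genes. By the sum, CST mouse 2 also lay above every Yoda1 mouse, and CST mouse 1 did not. CST mouse 3, the mouse with high Lce1, had the highest sum. It was also highest for melanocyte markers, at 90.0 FPKM against 13.5 to 19.4 FPKM in the other 5. Basal keratinocyte markers, led by Krt14, did not share that order, with 11504.3, 12091.1 and 11941.6 FPKM in CST mice and 8428.2, 8470.9 and 18371.4 FPKM in Yoda1 mice. By mean log2(FPKM + 1) this list stood at 7.96, 7.81 and 7.28 in CST mice and 7.39, 7.05 and 7.94 in Yoda1 mice. Within it, Krt14 was highest in Yoda1 mouse 3 (14600.8 FPKM). Krt15 was lowest in that mouse (154 FPKM) and highest in CST mouse 3 (700 FPKM). Muscle markers summed to 16128.7, 8432.1 and 15787.6 FPKM in CST mice and 134, 6211.8 and 662 FPKM in Yoda1 mice. They were higher in CST by mean in 14 of 14 (median log2 change 4.02), with 0 called by limma. For 13 of the 14 every CST library lay above every Yoda1 library, against 4.52% of all tested genes. Fibroblast markers were lower in CST by mean in 8 of 8 (median -0.51), with sums of 3887.7, 6299.1 and 5541.7 FPKM in CST mice and 11761.1, 10517.6 and 3669.3 FPKM in Yoda1 mice. Macrophage markers were lower in CST by mean in 9 of 10 (median -0.73), with sums of 2001.5, 2060.3 and 1494.9 FPKM in CST mice and 4414.7, 5245.2 and 1476.7 FPKM in Yoda1 mice. The part of these other cells in the higher CST means of the 44 genes, and of hair follicle, pigment cell and muscle content in the Lce1 levels, was not tested.

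Other late differentiation genes, from a list of 26 that leaves out the 51, leaned the same way. All 24 tested had the higher mean in CST (median log2 change 0.39), against 47.2% of all tested genes; 0 passed the limma threshold and 3 had an unadjusted p under 0.05, against 4.0% of all. Prr9, a proline-rich gene of the same complex, measured 6.24, 21.5 and 46.2 FPKM in CST mice and 1.68, 2.74 and 1.56 FPKM in Yoda1 mice, without overlap (2.74, SE 0.61, limma adjusted p = 0.521). Tchh, trichohyalin of hair follicle sheaths, measured 1.12, 11.0 and 16.9 FPKM in CST mice and 1.27, 1.08 and 1.37 FPKM in Yoda1 mice (1.78), and Crnn, cornulin, had a change of 1.66. Among these 3 genes CST mouse 1 lay above the Yoda1 mice for Prr9 and not for Tchh or Crnn.

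Loricrin (Lor), the main envelope protein, and the suprabasal keratin Krt1 were looked at after the values above were seen. The suprabasal keratin Krt10 is the most abundant tested gene of the list of 26 above and is already counted there. Lor measured 239, 561 and 1680.9 FPKM in CST mice and 452, 555 and 252 FPKM in Yoda1 mice (log2 change 0.61, SE 0.66), with CST mouse 3 highest, as for the Lce1 genes. Krt10 measured 2159.4, 3123.2 and 5322.9 FPKM in CST mice and 2054.3, 2585.4 and 4996.3 FPKM in Yoda1 mice, high in mouse 3 of both groups, and Krt1 did the same, at 2547.2 FPKM in CST mouse 3 and 2292.9 FPKM in Yoda1 mouse 3. The summed Lce1 level was therefore 0.983, 0.820 and 1.30 times that of Krt10 in CST mice and 1.33, 1.08 and 0.357 times in Yoda1 mice. Yoda1 mouse 3 stood lowest by this ratio, with suprabasal keratin near that of CST mouse 3.

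The other enzymes and regulators of the pathway gave 0 calls by limma. Of 16 tested genes for desquamation and filaggrin processing, 14 had the higher mean in CST (median 0.38), among which the bleomycin hydrolase gene Blmh, which acts on filaggrin fragments, had the smallest unadjusted p (0.0589 by limma), at 296, 236 and 493 FPKM in CST mice and 164, 158 and 273 FPKM in Yoda1 mice (0.76, SE 0.34). Of 11 tested corneodesmosome genes 10 had the higher mean in CST, with a median of 0.09. Of 31 tested transcription factors of epidermal differentiation 25 had the higher mean in CST (median 0.22). In 2 of the 31, Ovol2 and Nfe2l1, every CST library lay above every Yoda1 library, against 4.52% of all tested genes; Nfe2l1 was named after its values were seen. Gata3, a factor of epidermis and hair follicle, measured 179, 186 and 296 FPKM in CST mice and 121, 200 and 76.0 FPKM in Yoda1 mice (0.80), and Klf4, a barrier factor, 265, 191 and 252 FPKM in CST mice and 168, 169 and 354 FPKM in Yoda1 mice (0.11).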

How the data were processed

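The authors deposited 1 table of FPKM values for 6 libraries, with gene symbols; no source used here states the aligner, counter or strandedness, and the builds in the submitters' processing notes are GRCm38 and mm10. The deposited positions were not used; gene identifiers were looked up in GENCODE M21 (GRCm38) instead. Whole reads were worked out from the smallest FPKM differences. Of the 30697 genes above 0, 100% came out whole within 0.0005 reads, or a wider margin for genes with very many reads. At wrong depths 0.8% of 2000 genes did so. Those 2000 had reads in every library, whereas the 30697 include genes with reads in few, so these shares come from unlike gene sets. Depths were 23791352 to 29620526 reads, and reads per gene are the smallest that fit.

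Tests used limma 3.58.1 in R 4.3.3 (trend) on log2(FPKM + 1), two-sided, with Benjamini-Hochberg adjustment over the 14588 genes whose mean FPKM reached 1. The log scale understates changes of low genes. The script was tested on simulated data. The smallest two-sided p of an exact permutation of 3 against 3 libraries is 0.1, and scores over genes carry no p. All single-gene names come from the rule. Of other lists, up to 3 genes with the smallest p and the most abundant were named. Named outside this were Lor, Krt1, Krt6a, Krt6b, S100a8, Retnlg, Nfe2l1 and markers at 0 in a library. Genes and lists were chosen with earlier results of these data known. Alternatives covered the pseudocount, filter, scaling, weights, variance model, covariates, mouse number as a block, and leaving out each library. Promoters are RefSeq's (GRCm38.p6).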

Additional observations from a re-analysis of the deposited data

How the results depend on the processing

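Over 16 other settings, the count of genes called was 0 except in 3: 1348 with limma's library weights (0.193 to 12.8 per library), and 8 without CST mouse 2 and 136 without Yoda1 mouse 2 (range 0 to 136 over the 6 fits that leave out 1 library). Of the 47 genes 1 was called, Sbsn with library weights (log2 change 0.78, limma adjusted p = 0.0332); in every other setting 0 were. The Lce median was 1.12 and the Lce minus Sprr difference 1.36 with the neutrophil score, itself higher in CST by mean, as a covariate. Library weights gave a Sprr median of -0.06 and a Lce median of 0.16, and the basal keratinocyte score as a covariate gave a Sprr median of 0.12 and a difference of 0.55. Leaving out 1 library moved the medians from -0.06 to 0.73 (Lce), -0.01 to 0.86 (Sprr) and 0.24 to 0.74 (single genes), and the difference from -0.55 to 0.67. Among the 24 genes followed through every setting, signs turned for Tgm3 with library weights (0.09) and, with the neutrophil score, for Klk7 (-0.01), Tgm1 (-0.02), Sprr1a (-0.37), Sprr1b (-0.12), Sprr2d (-0.26) and Sprr4 (-0.06). Among the same 24, leaving out 1 library turned Tgm3 (-0.53 to 0.54), Lce1b (-0.06 to 0.72), Tgm1 (-0.05 to 0.64), Sprr1a (-0.01 to 0.79) and Lce1m (-0.07 to 1.02); over all 47, between 1 and 16 genes had the lower CST mean. The causes were not tested. Same-numbered mice did not deviate together (r = -0.08, 0.21 and -0.20). With mouse number as a replicate block, limma called 0 genes (smallest adjusted p = 0.0828). This block cannot move a log2 change, because each number holds 1 mouse of each group. It gave an unadjusted p under 0.05 for 4 of the 47 and 680 of the 14588 genes, against 1 and 584 in the main fit. With 3 mice a group, the groups overlapped for each of the 47 genes except Flg2.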
